A study of Saccharomyces cerevisiae with 8 samples.

Results

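The comparison described here sets RNA recovered with an antibody against N6-methyladenosine (m6A) from wild-type (WT) meiotic yeast against the input RNA of the same genotype, at single ACA sites. Its members are the ACA sites with a value in both WT IP and both WT input libraries: 25877 of 76330 distinct sites (33.9%), in 4537 gene models. They were chosen by being measured, not by their values. WT IP libraries measured 33340 and 43570 sites and WT input libraries 45365 and 62498. Both WT IP libraries and neither input measured 2587 sites, while both inputs and neither IP measured 11836.

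All groups came from diploid SK1 cells, a budding yeast strain that enters meiosis efficiently, grown in rich medium and then induced to enter meiosis. The groups used were WT IP (antibody against m6A), WT input (no antibody), and, as the background of the antibody, KO IP and KO input, with 2 biological replicates each and 8 libraries in all. Both genotypes carried lys2/lys2, ho::LYS2/ho::LYS2 and ndt80::LEU2/ndt80::LEU2, so the WT cells also lack an intact NDT80, the gene of the transcription factor that takes cells out of prophase and into the meiotic divisions. KO cells in addition carried ime4::HIS3/ime4::HIS3. The labels do not say whether an IP and an input library of one number came from one culture.

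In this yeast m6A is laid down on mRNA during meiosis by a complex built on Ime4, the catalytic subunit. Mum2 and Slz1 act with it, and Vir1 belongs to the same machinery. Pho92 is a reader protein that binds the mark. MazF, an RNase from bacteria, cuts RNA in front of ACA but is blocked where the first base of that triplet is methylated. A methylated site should therefore be cut less, and RNA enriched by the antibody should hold more methylated copies. Each value is a normalized cleavage efficiency, a fraction per site and library, and was read as more cutting when higher, a direction taken from the name of the quantity alone. The assay is done on bulk RNA, so a site methylated on some copies in every cell and one methylated on all copies in some cells cannot be told apart.

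At single sites, cutting in WT IP was both lower and higher than in WT input, and the falls were the deeper changes. By limma's moderated test at an adjusted p of 0.05, 1338 sites were lower in WT IP (5.17% of those tested) and 1284 were higher (4.96%), 10.1% together. The lower sites had a median change of -0.406 and the higher sites one of 0.297. Past a fall of 0.4 there were 685 called sites, and 265 past a rise of 0.4, while past 0.6 the counts were 186 and 27. Called changes of at least 0.2 made up 4.92% of tested sites as falls and 4.42% as rises. Called or not, 2911 tested sites fell and 3509 rose by at least 0.2, and 1011 fell and 385 rose by at least 0.4. Both WT IP values lay outside the 2 WT input values at 63.1% of sites (22.7% below, 40.4% above), so a lack of overlap is common in these data. Lower sites lay in 1069 genes and higher sites in 1033, and 338 genes had both. A gene usually had 1 lower site (852 genes), and 46 genes had 3 or more.

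The calls rest on 4 libraries and 2 residual degrees of freedom. Adjusted p-values of the called sites began at 0.0290, 7842 sites (30.3%) had an unadjusted p under 0.05, and an exact test of 1 site over 2 against 2 libraries cannot give a two-sided p below 0.333. By limma no site passed on a logit scale (lowest adjusted p = 0.0515) or with the replicate number as a block (0.103). The calls were also lost without any 1 of the 4 WT libraries, which leaves 1 group with a single library. The block leaves the difference of means unchanged. Groups that do not overlap cannot reverse on a logit scale or when 1 library is left out. That all 1338 lower and all 1284 higher sites kept their direction in these fits is therefore no support for the calls. At an unadjusted p under 0.05 those fits had 2715 to 3295 lower and 3762 to 4520 higher sites. Median centring, which moves the libraries to 1 median, gave 1553 lower and 907 higher sites. The median tested site was higher by 0.0268 in WT IP. Over the tested sites, library medians were 0.646 and 0.642 in WT IP and 0.617 and 0.612 in WT input. Over all sites that each library measured, they were 0.637 and 0.636 in WT IP and 0.639 in both WT inputs.

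The 15 deepest falls had WT IP near the lower end of the scale and WT input near its upper end. DPS1, the cytosolic aspartyl-tRNA synthetase gene, had efficiencies of 0.0437 and 0.0522 in the WT IP libraries, against 0.992 and 0.994 in the WT inputs, 138 nt from the start of its model (chromosome 12, position 115291, minus strand). The groups were far apart, with a change of -0.945 (SE 0.0234, limma's adjusted p = 0.0290). Both WT input values were the highest of their libraries, so their small spread does not measure replicate error. REH1, a cytosolic factor of late maturation of the large ribosomal subunit, had 0.0771 and 0.0338 in WT IP and 0.992 and 0.966 in WT input at +758 (chromosome 12, position 895854, minus strand), where +758 is the offset in nt along the model. GIS2, which encodes a zinc-knuckle RNA-binding protein, had 0.0567 and 0.0714 in WT IP and 0.992 and 0.899 in WT input at +686 (chromosome 14, position 185327, minus strand). In each of these genes both IP libraries stood below 0.1 and both inputs near the top.

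**Figure D1:**
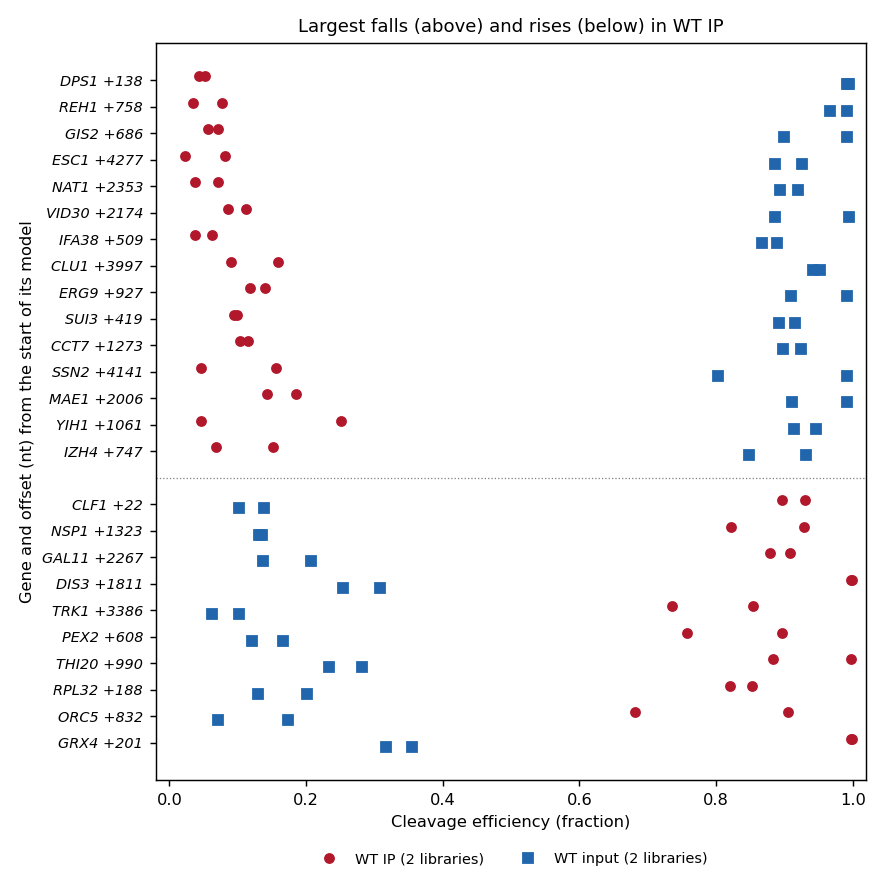
Cleavage efficiency (fraction, horizontal axis) at the 15 sites with the largest falls and, below the dotted line, the 10 with the largest rises in WT IP, one row per site; circles are the 2 WT IP libraries and squares the 2 WT input libraries. WT IP means of the falls lie between 0.0480 and 0.164 and WT input means between 0.878 and 0.993. Only called sites without overlap between the groups were eligible.

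ESC1, the gene of a nuclear periphery protein of telomeric silencing, had 0.0820 and 0.0232 in WT IP and 0.887 and 0.926 in WT input at +4277 (chromosome 13, position 700633, plus strand). NAT1, which encodes the large subunit of the N-terminal acetyltransferase NatA, had 0.0370 and 0.0714 in WT IP, against 0.894 and 0.920 in WT input at +2353 (chromosome 4, position 383475, minus strand). IFA38, the ketoreductase gene of very long chain fatty acid synthesis, had 0.0627 and 0.0375 in WT IP, against 0.867 and 0.889 in WT input at +509 (chromosome 2, position 546319, plus strand). The spread between replicates at these sites was small beside the change: for IFA38 the means were 0.0501 ± 0.0178 in WT IP and 0.878 ± 0.0152 in WT input (SD, n = 2 each). The sites were picked for large called changes without overlap, so a small spread is partly set by that choice. Identical values recur between named sites: WT IP replicate 2 was 0.0714 at GIS2 and NAT1, and WT input replicate 1 was 0.887 at ESC1 and VID30. Among sites named below, WT IP replicate 1 was 0.250 at YIH1, LEO1 and MPT5 and 0.896 at CLF1 and PEX2. WT input replicate 1 was 0.102 at CLF1 and TRK1. The read depth behind such values is not known.

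Further falls of this rank came in genes of varied function. VID30, of the GID ubiquitin ligase that degrades gluconeogenic enzymes, fell by 0.841 at +2174. CLU1, a gene of mitochondrial distribution, fell by 0.822 at +3997, and ERG9, the squalene synthase gene, fell by 0.822 at +927. SUI3, the beta subunit of the initiation factor eIF2, fell by 0.807 at +419, and CCT7, a subunit of the cytosolic chaperonin, fell by 0.801 at +1273. MAE1, the mitochondrial malic enzyme gene, fell by 0.787 at +2006. SSN2, a Mediator subunit gene, fell by 0.796 at +4141 with uneven replicates (0.0468 and 0.156 in WT IP, 0.992 and 0.803 in WT input). YIH1, whose product restrains the kinase Gcn2, fell by 0.782 at +1061 with WT IP at 0.250 and 0.0460, and IZH4, a membrane protein gene, fell by 0.780 at +747. The adjusted p of the 15 sites ran to 0.0357, and at 7 of them a WT input library stood at its highest value.

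The 10 largest rises had WT IP means between 0.794 and 0.998 and WT input means between 0.0820 and 0.336. CLF1, a splicing factor gene, had 0.896 and 0.930 in WT IP, against 0.102 and 0.139 in WT input at +22 (chromosome 12, position 382282, minus strand), a change of 0.793 (SE 0.0303, limma's adjusted p = 0.0290); that position is also listed under the model YLR118C. NSP1, a nuclear pore gene, rose by 0.742 at +1323 and GAL11, a Mediator subunit gene, by 0.721 at +2267. NSP1 also rose in KO, with 0.899 and 0.906 in KO IP and 0.502 and 0.521 in KO input (limma's adjusted p = 0.0250). DIS3, the catalytic subunit of the exosome, stood at 0.997 and 1.000 in WT IP, the highest values of both libraries, against 0.308 and 0.254 in WT input at +1811. TRK1, the potassium transporter gene, rose by 0.713, PEX2, of peroxisome biogenesis, by 0.683, THI20, of thiamine synthesis, by 0.682 and RPL32, a gene of the large ribosomal subunit, by 0.671. ORC5, of the origin recognition complex, had 0.906 and 0.682 in WT IP and 0.0713 and 0.174 in WT input (adjusted p = 0.0474), and GRX4, a glutaredoxin gene, rose by 0.662. Of the 10 rises, 4 had values in all 8 libraries. Their differences between KO IP and KO input were 0.391 at NSP1, 0.252 at RPL32, 0.0354 at GRX4 and -0.133 at GAL11.

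The same comparison without IME4 was much narrower. It could be made at the 17361 WT sites measured in all 8 libraries (67.1%), in 1 limma fit of all 8 libraries. There WT IP and WT input differed at 3620 sites (20.9%), with 1463 lower (8.43%) and 2157 higher (12.4%). KO IP and KO input differed at 291 (1.68%), with 102 lower (0.588%) and 189 higher (1.09%). Falls of at least 0.4 numbered 471 in WT and 20 in KO, and rises of at least 0.4 numbered 203 in WT and 18 in KO. Both KO IP values lay outside both KO inputs at 50.9% of sites (20.3% below, 30.6% above). The KO calls rested on the variance shared over all 8 libraries: with only the 4 KO libraries, 0 of 24331 sites passed by limma, while 1741 lower and 2633 higher ones had an unadjusted p under 0.05, and leaving out any 1 of the 8 libraries left at most 25 lower and 42 higher.

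**Figure D2:**
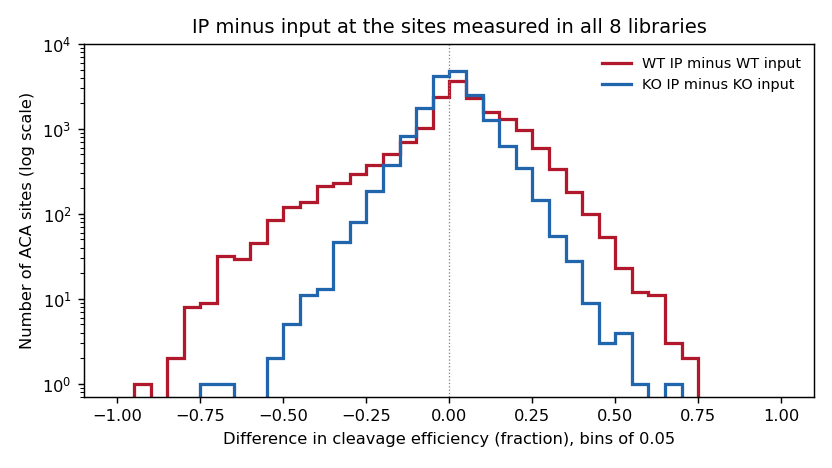
Number of ACA sites (log scale) against the difference in cleavage efficiency between IP and input (fraction, bins of 0.05) in WT and in KO, at the 17361 sites measured in all 8 libraries. The WT outline is wider on both sides and reaches further on the negative side, with 471 WT sites and 20 KO sites lower by at least 0.4.

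Tested site by site, the WT difference between IP and input departed from the KO difference at 1345 sites (7.75%), of which 749 had a more negative WT difference (4.31%) and 596 a more positive one (3.43%). They were 171 and 89 on a logit scale, and 0 and 0 with the replicate block, where 1806 and 2287 sites had an unadjusted p under 0.05. Without KO input replicate 1 the counts were 23 and 6, and without KO input replicate 2 they were 41 and 9. Of the 1338 sites called lower in WT IP, 749 (by coincidence the same number) were measured in all 8 libraries, 4.31% of the sites measured there. Of these, 550 (73.4%) also passed this interaction in the same direction and 23 were lower in KO IP too. Their medians were 0.312 in WT IP, 0.801 in WT input, 0.862 in KO IP and 0.886 in KO input. Of the 892 higher sites measured in all 8 libraries (5.14%), 344 (38.6%) passed the interaction in the same direction, 2 passed it in the opposite one, and 55 were higher in KO IP too. Their medians were 0.691 in WT IP, 0.349 in WT input, 0.517 in KO IP and 0.433 in KO input. The 2 tests share the WT libraries, so their overlap is not independent support for either.

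Single sites show how the genotypes differ. RVS161, an amphiphysin-like gene of endocytosis and cell fusion, had 0.192 and 0.251 in WT IP and 0.952 and 0.942 in WT input at +616 (chromosome 3, position 135502, minus strand). KO IP averaged 0.995 there and the KO inputs stood at 0.964 and 0.965, so only WT IP was low, and the WT difference minus the KO difference was -0.756 (SE 0.0388, adjusted p = 0.00389). IFA38 had the same form, with 0.821 and 0.912 in KO IP and 0.922 and 0.924 in KO input (difference of differences -0.771). LEO1, of the Paf1 transcription elongation complex, had 0.250 and 0.144 in WT IP and 0.926 and 0.905 in WT input at +643, while KO IP had 0.606 and 0.677 and KO input 0.412 and 0.523 (-0.891). In LEO1 the WT inputs lay above the KO inputs.

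RCF1, a respiratory supercomplex factor gene, differed in another way. At +683 it had 0.130 and 0.0949 in WT IP and 0.847 and 0.907 in WT input, but both KO groups were low, with 0.281 and 0.293 in KO IP and 0.268 and 0.315 in KO input. DPS1 had a difference of differences of -0.882 and GTR2, a Rag-type GTPase gene of TORC1 signalling, one of -0.877. BMH1, a 14-3-3 protein gene, did not pass in WT at +230 (0.973 and 0.970 in WT IP, 0.956 and 0.968 in WT input, adjusted p = 0.839), and its positive value of 0.680 came from KO, with 0.253 and 0.311 in KO IP and 0.952 and 0.953 in KO input. MBF1, a transcriptional coactivator gene, had 0.790 and 0.857 in WT IP and 0.335 and 0.226 in WT input at its last listed site (0.885). Part of that value came from KO, with 0.439 and 0.268 in KO IP and 0.688 and 0.702 in KO input. GAL11 at +2267 had a value of 0.854, with both KO IP libraries below both KO inputs. IES2, of the INO80 remodeller, had a value of 0.711, with means of 0.887 in WT IP and 0.458 in WT input. Its KO means went the other way, at 0.122 in KO IP and 0.404 in KO input.

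Many of the deepest WT falls have no KO counterpart. Of the 15 sites above, 11 lacked a value in 1 or both KO IP libraries, and the 4 that had all values (DPS1, IFA38, SUI3 and MAE1) passed the interaction. The interaction contains the WT difference by which these sites were picked, so passing it is no separate support. At SUI3 KO IP was lower too, with means of 0.191 in KO IP and 0.379 in KO input. That KO difference did not pass (limma's adjusted p = 0.0687). Both KO inputs measured 14 of the 15. They were high at some, such as CCT7 (0.988 and 1.00), CLU1 (0.986 and 0.945) and YIH1 (0.895 and 0.949). KO input means were also high at MAE1 (0.954), ESC1 (0.934) and IFA38 (0.923). They were 0.815 at NAT1 and 0.808 at DPS1, where WT input means were 0.907 and 0.993. At others the KO inputs lay well below WT input: GIS2 had 0.367 and 0.372 and SUI3 0.423 and 0.334. The same held for VID30 (0.441 and 0.582), SSN2 (0.519 and 0.390), ERG9 (0.575 and 0.592) and REH1 (0.709 and 0.710).

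The share of calls differed with the efficiency in KO input. Among the 6523 sites with a KO input mean of at least 0.8, 7.31% were called lower in WT IP and 2.25% higher. Their median in WT input was 0.813, which leaves less room to rise than to fall. Between 0.2 and 0.4 in KO input (2036 sites), 3.34% were lower and 8.89% higher. Sites below 0.2 (4279) have little room to fall, and 0.538% were lower there and 5.70% higher. Median WT efficiencies were above the KO ones in every bin below 0.8: between 0.2 and 0.4 the medians were 0.557 in WT IP, 0.439 in WT input, 0.323 in KO IP and 0.298 in KO input. In the top bin the order was turned, with medians of 0.831 in WT IP, 0.813 in WT input, 0.912 in KO IP and 0.915 in KO input. The KO libraries that form the bins are not part of the WT comparison, but the bins are set by a KO measurement with its own error, and these shares were not tested against each other.

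**Figure D3:**
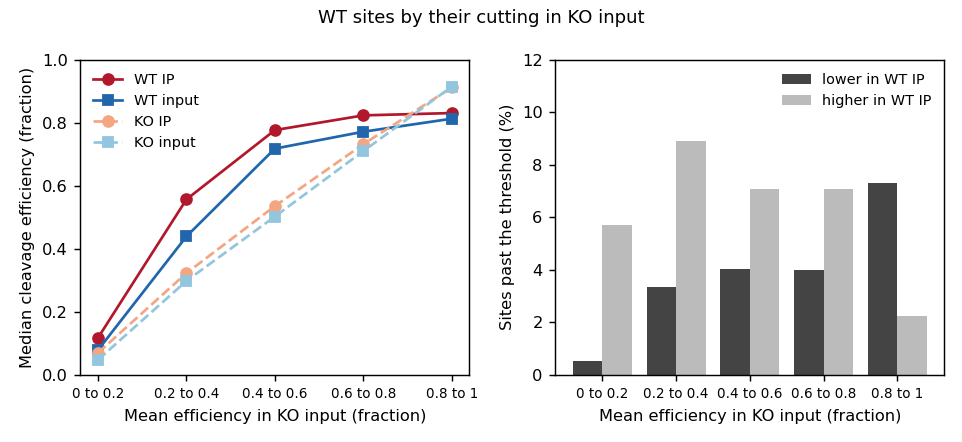
WT sites in 5 bins of their mean cleavage efficiency in KO input (fraction). The left panel gives the median efficiency of each group in each bin; the right panel gives the percentage of sites called lower or higher in WT IP against WT input, with lower calls most frequent at 0.8 to 1 (7.31%) and higher calls at 0.2 to 0.4 (8.89%).

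Along the gene, the share of lower calls was highest in the outer parts of the model, and the parts were not tested against each other. With the span of each model that ends at the last site in the table cut into 5 parts of equal length, the share of tested sites called lower was 5.61%, 4.17%, 4.55%, 4.83% and 5.92% in order, and the share called higher lay between 4.76% and 5.29%. The last part held 44.8% of lower calls, 38.9% of higher calls and 39.2% of all tested sites. The last listed site itself made up 7.62% of lower calls, 7.94% of higher calls and 8.39% of tested sites.

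Calls near a deep fall were counted by distance. The 685 sites called lower by at least 0.4 had 78 other tested sites within 25 nt in the same model, of which 12 (15.4%) were called lower and 5 (6.41%) higher. These lower calls were 4 of 47 sites upstream and 8 of 31 downstream. At 26 to 50 nt, 6 of 49 sites upstream and 1 of 27 downstream were called lower. At 51 to 100 nt, both sides pooled, 495 sites had 9 lower (1.82%) and 45 higher calls (9.09%). Those higher calls were uneven between the sides, with 12 upstream (5.45% of sites there) and 33 downstream (11.96%). Over all tested sites other than the 685 the shares were 2.59% lower and 5.10% higher. Neighbouring sites can share reads, so these counts are a description with no test.

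Single genes mixed falls, rises and sites that did not pass. CCT7 had 16 tested sites in its model, 3 of them lower (+936, +1273 and +1455) and 1 higher (+313). At +936 its means were 0.424 in WT IP and 0.884 in WT input. REH1 had 3 lower sites, of which +730 and +758 lie 28 nt apart; +730 had means of 0.0322 in WT IP and 0.592 in WT input. ESC1 fell at +4277 and at +3719, and VID30 at +2174 and at +1722 (0.428 in WT IP, 0.923 in WT input).

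HAP4, the activating subunit of the Hap complex that drives respiratory genes, had the most lower sites of any gene, 5 of 23 tested, all by at least 0.2 and none higher. At +547 its means were 0.233 in WT IP and 0.770 in WT input, and at +766 they were 0.370 in WT IP and 0.837 in WT input. The other falls were shallower, with changes of -0.363 at +1718, -0.327 at +1800 and -0.274 at +1974. The KO means stayed close together at +766 (0.956 in KO IP, 0.900 in KO input), +1718 and +1800. At +1974 the KO groups overlapped, with 0.241 and 0.600 in KO IP and 0.436 and 0.742 in KO input. The KO difference there did not pass (limma's adjusted p = 0.694). The interaction passed at the first 3 of these 4 sites and not at +1974 (adjusted p = 0.805), where the wide KO spread leaves the genotypes uncompared.

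Next came 4 genes with 4 such falls each. MET3, the ATP sulfurylase gene of sulfate assimilation, had 4 of 13 tested sites lower, among them +1115 (0.00589 in WT IP, 0.381 in WT input) and its last site +1776 (0.126 in WT IP, 0.457 in WT input). ATP3, the gamma subunit of the mitochondrial ATP synthase, had 4 of 14 lower and 1 higher, ACH1, the CoA transferase gene of acetate metabolism, 4 of 17 lower and 1 higher, and MSH4, of the meiotic crossover pathway, 4 of 32 lower and 1 higher. ATP3 at +540 had 0.0173 in WT IP and 0.300 in WT input, with 0.907 in KO IP and 0.902 in KO input. ACH1 at +154 had 0.111 in WT IP and 0.633 in WT input.

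Rises of at least 0.2 were most numerous in 5 genes with 4 each, of which FAR8, GAL11 and CIT1 had the fewest tested sites. GAL11 had 4 of 14 sites higher and none lower, with 0.963 in WT IP and 0.247 in WT input at +1582. FAR8, of a complex in pheromone arrest recovery, had 4 of 12 higher and 1 lower. CIT1, the mitochondrial citrate synthase gene, had 4 of 18 higher and 3 lower, and 2 of its sites 2 nt apart went opposite ways: +1005 had 0.687 in WT IP and 0.435 in WT input, and +1007 had 0.215 in WT IP and 0.877 in WT input. Sites this close can share reads, so the 2 changes may not be independent. The CIT1 rise at +1082 passed in KO too, with means of 0.511 in KO IP and 0.314 in KO input (limma's adjusted p = 0.0286). It did not pass the interaction (adjusted p = 0.259), while the rises at +777, +1005 and +1551 did.

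**Figure D4:**
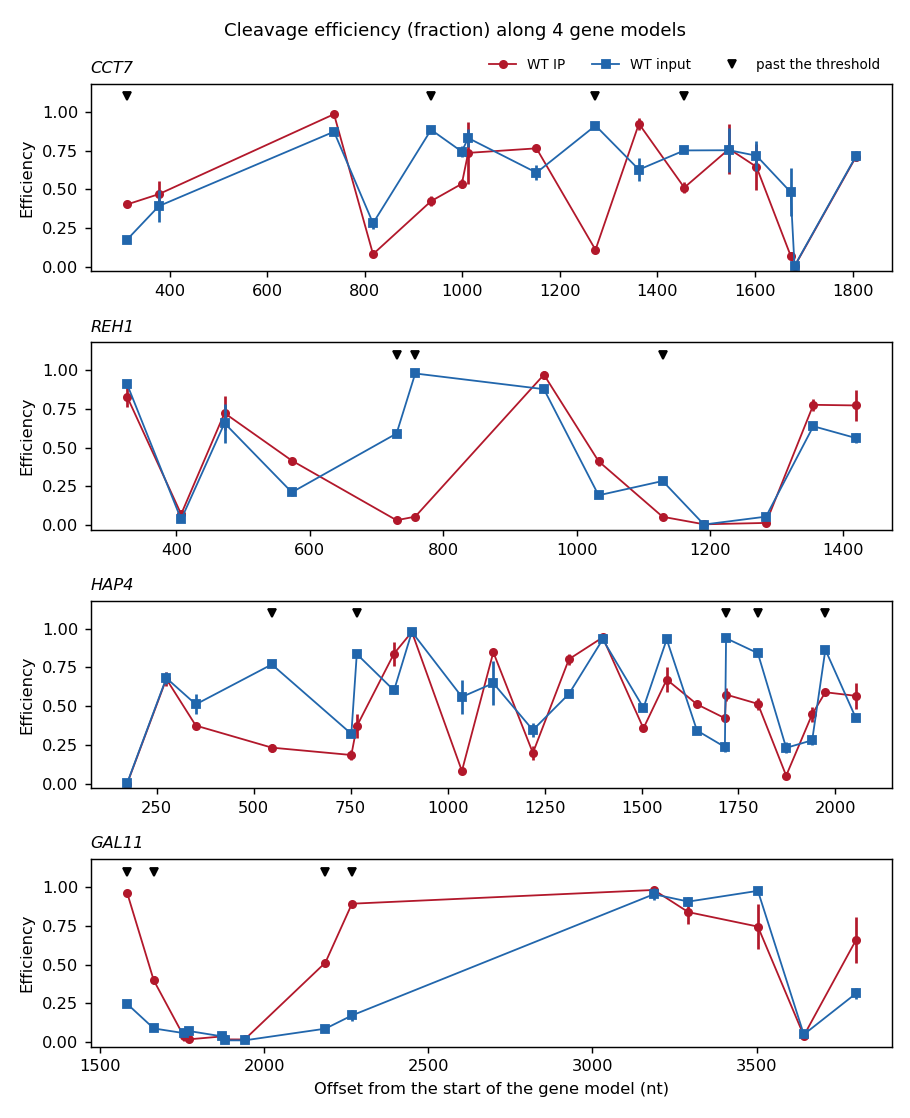
Mean cleavage efficiency (fraction) in WT IP (circles) and WT input (squares) at the tested sites of CCT7, REH1, HAP4 and GAL11 against the offset from the start of the gene model (nt); vertical bars span the 2 libraries and triangles mark sites past the threshold. HAP4 has 5 marked sites, all with WT IP below WT input, and GAL11 has 4, all with WT IP above it.

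The meiotic regulators were measured unevenly. IME1, the activator of meiotic entry, had 12 tested sites, 1 lower and 1 higher. At +875 it had 0.354 and 0.319 in WT IP and 0.684 and 0.614 in WT input (adjusted p = 0.0392), and at +1070 it had 0.754 and 0.762 in WT IP and 0.484 and 0.431 in WT input (adjusted p = 0.0340). Its deepest difference, at +218, was 0.526 and 0.309 in WT IP and 0.808 and 0.791 in WT input and did not pass (adjusted p = 0.0907). IME2, the meiotic kinase gene, had 20 tested sites of which 1 passed, +624 (0.528 and 0.630 in WT IP, 0.959 and 0.951 in WT input). KO IP was lower there too, with means of 0.388 in KO IP and 0.726 in KO input. That KO difference did not pass (limma's adjusted p = 0.102), nor did the interaction (adjusted p = 0.874). IME4 itself had 13 tested sites and none passed; its lowest adjusted p was 0.0675. RME1, a repressor of meiotic entry, and NDT80 had no site with values in all 4 WT libraries.

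Calls in lists of meiotic genes went in both directions. The recombination and synapsis list had 38 lower and 43 higher sites of 682 in 54 genes (5.57% and 6.30%, median change 0.0270 beside 0.0268 over all sites), and 601 did not pass. SPO22, of the synapsis initiation complex, fell by 0.714 at +2665 (0.0945 in WT IP, 0.809 in WT input), and SGS1, the RecQ helicase gene, fell by 0.654 at +4132. HFM1, the crossover helicase gene, rose by 0.639 at +276 (0.733 in WT IP, 0.0949 in WT input). The middle meiotic list had 14 lower and 15 higher of 208 sites in 32 genes (6.73% and 7.21%, median 0.0149). MAM1, of monopolin, fell by 0.606 at +802, where both KO groups averaged 1.00, SPO75, needed for spore formation, fell by 0.601, and SPR6, a sporulation gene, rose by 0.591. The meiotic entry list had 8 lower and 7 higher of 215 sites in 23 genes (3.72% and 3.26%, median 0.0229). RFM1 and HST1, which act with Sum1 to repress middle meiotic genes, fell by 0.654 at +818 and by 0.603 at +1299, and SIN3, of the Rpd3 deacetylase complex, rose by 0.350 at +4189.

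The m6A machinery and its reader had 2 lower and 3 higher of 59 sites in 7 genes (3.39% and 5.08%, median 0.0205). VIR1 had 0.330 and 0.409 in WT IP and 0.948 and 0.942 in WT input at +1794, a fall of 0.575 that was larger than in KO (interaction adjusted p = 0.0109). SLZ1 fell by 0.537 at +425 (0.349 and 0.401 in WT IP, 0.892 and 0.933 in WT input) and also passed the interaction (0.00759). MUM2 rose by 0.292 at +820.

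Among lists of protein and RNA turnover, the proteasome list had 33 lower and 20 higher of 408 sites in 35 genes (8.09% and 4.90%, median 0.0184). PRE4, a core particle subunit, fell by 0.750 at +478 and UBP6, the proteasome's deubiquitinase, fell by 0.724 at +208, while RPN1, a regulatory particle subunit, rose by 0.529 at +3069. The mRNA decay list had 16 lower and 6 higher of 202 sites in 30 genes (7.92% and 2.97%, median 0.0123). MPT5, a Pumilio RNA-binding protein gene, fell by 0.707 at +2738, PAN3, of the Pan2-Pan3 deadenylase, fell by 0.619 at +1938, and the helicase gene NAM7, of nonsense-mediated decay, rose by 0.564 at +2795. Autophagy genes had 14 lower and 9 higher of 196 sites in 27 genes (7.14% and 4.59%, median 0.0206); VPS30 fell by 0.616 and ATG26 fell by 0.505, whereas ATG33 rose by 0.620.

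Most sites of the energy metabolism lists did not pass. The respiratory chain and ATP synthase list had 21 lower and 28 higher of 289 sites in 35 genes (7.27% and 9.69%, median 0.0318). ATP7, an ATP synthase stator subunit, fell by 0.603, CYT1, cytochrome c1, fell by 0.575, and QCR2, a core subunit of the bc1 complex, rose by 0.593 at +1049. Acetate use and the TCA cycle had 37 lower and 40 higher of 606 sites in 43 genes (6.11% and 6.60%, median 0.0384). CIT1 fell by 0.662 at +1007 and CAT2, the carnitine acetyltransferase gene, fell by 0.635 at +271, while MLS1, malate synthase, rose by 0.528 at +1836. MLS1 rose there in KO too, by 0.219 (limma's adjusted p = 0.0369), and passed the interaction (adjusted p = 0.0152). Glycolysis and gluconeogenesis had 4 lower and 7 higher of 186 sites in 21 genes (2.15% and 3.76%, median 0.0432), the lowest share of falls among the 14 lists. PCK1, the PEP carboxykinase gene, had 0.137 and 0.0930 in WT IP and 0.884 and 0.873 in WT input at +966; TDH3 fell by 0.476 at +1234, with close paralogs that make its value uncertain, and PGK1 rose by 0.416.

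**Figure D5:**
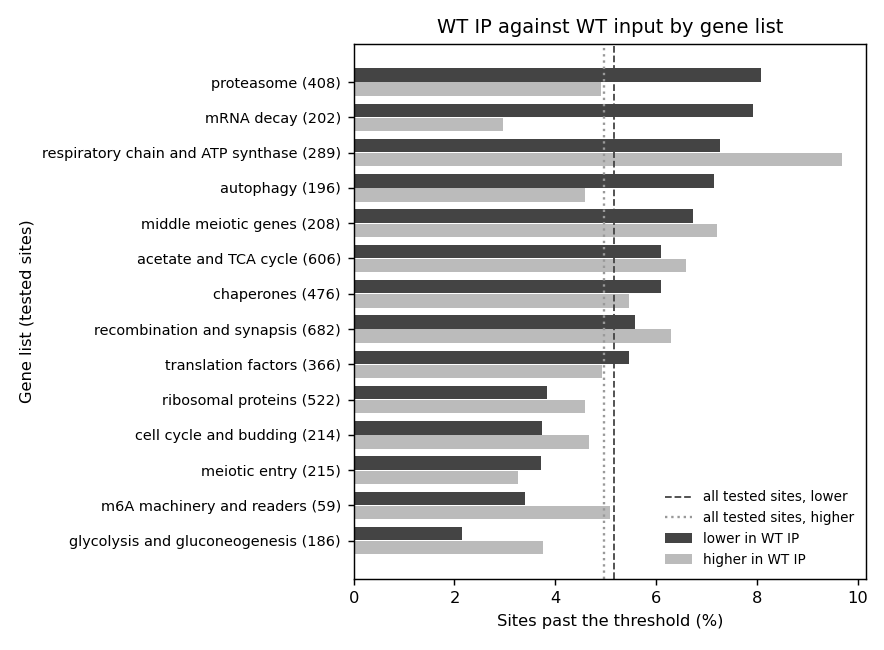
Percentage of tested sites called lower (dark) or higher (light) in WT IP against WT input in each of 14 gene lists, with the number of tested sites in brackets; the lines give the same over all tested sites (5.17% lower, 4.96% higher). The proteasome list has the highest share of lower calls (8.09%) and the respiratory chain and ATP synthase list the highest share of higher calls (9.69%).

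Chaperones had 29 lower and 26 higher of 476 sites in 38 genes (6.09% and 5.46%, median 0.0172); after CCT7 the largest fall was in CCT4, another chaperonin subunit, which fell by 0.653, and SIS1, an Hsp40 gene, rose by 0.487. Translation factors had 20 lower and 18 higher of 366 sites in 41 genes (5.46% and 4.92%, median 0.0333). After SUI3, EFT1 fell by 0.681, a value made uncertain by its near-identical copy EFT2, and PAB1, the poly(A)-binding protein gene, rose by 0.459. Ribosomal protein genes had 20 lower and 24 higher of 522 sites in 118 genes (3.83% and 4.60%, median 0.0168). RPS15 fell by 0.729 and RPL35B fell by 0.558, the second with a close copy that makes it uncertain, and RPL32 was the largest rise. Cell cycle and budding genes had 8 lower and 10 higher of 214 sites in 31 genes (3.74% and 4.67%, median 0.0237). MAD3, of the spindle checkpoint, fell by 0.780 with uneven WT inputs (0.723 and 0.994, limma's adjusted p = 0.0451). CDC14, the mitotic exit phosphatase gene, fell by 0.717 and had no value in any KO library. SWI4, a G1/S transcription factor gene, rose by 0.441. No list was tested as a set, and the lists are part of the sites that give the background, so their shares are descriptions.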

How the data were processed

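Values are cleavage efficiencies at ACA sites after MazF digestion, the enzyme and the normalization being known from the table's name. They were deposited by the authors as a fraction per site and library. The formula, the way of normalizing, the minimum depth and the genome build are not given in the sources used here. Columns have nearly the same quantiles over their measured sites (medians 0.636 to 0.639), so a shift of a whole library cannot be seen. STAR 2.5.3a and bedtools 2.26.0 are named per the submitters' processing notes. The fractions come without read counts, so depth is unknown and no interval is given. The table's 77601 lines were reduced to the first line per chromosome, position and strand; at 107 positions the lines differed. Gene models were named by locus tag from the R64 RefSeq table (5680 of 6104 matched). Coordinates are the table's own; exon, intron and UTR were not given, and no sequence of its build was used.

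The fraction at sites measured in the 4 WT libraries was modelled in limma 3.58.1 (R 4.3.3) (1 mean per group, with 2 residual and 1.35 prior degrees of freedom), two-sided, with Benjamini-Hochberg adjustment over 25877 sites. KO IP against KO input and the interaction came from a fit of all 8 libraries at 17361 sites, with 4 residual degrees of freedom. Named were the 15 largest falls and 10 largest rises past 0.05 without overlap between groups (1 per gene model), 6 and 4 sites of the interaction, 2 falls and 1 rise per gene list, the 5 and 3 genes with most falls and rises of at least 0.2, the profiles of 4 genes with deep falls, and IME4, IME1, IME2, RME1 and NDT80. The comparison, rules and 14 lists were chosen with earlier results of these data known. Neighbours, bins of KO input and the genotype medians were added after the values were seen.

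Same-numbered WT IP and WT input libraries deviated together with a correlation of 0.0631 over sites, and the labels name no shared culture, so the number was not used as a pair. Replicates correlated at 0.937 in WT IP and 0.920 in WT input over sites; IP with input correlated at 0.791 to 0.811.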

Additional observations from a re-analysis of the deposited data

Results flagged for a closer look

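WT and KO differed in their IP minus input difference, tested by limma's interaction term, at 749 sites in the negative and 596 in the positive direction. The named sites with the most negative WT difference minus KO difference were LEO1 +643 (-0.891), DPS1 +138 (-0.882), GTR2 +583 (-0.877), IFA38 +509 (-0.771), RCF1 +683 (-0.760) and RVS161 +616 (-0.756). Those with the most positive one were MBF1 +768 (0.885), GAL11 +2267 (0.854), IES2 +850 (0.711) and BMH1 +230 (0.680). In BMH1 the WT groups differed by 0.00934 and the KO groups by -0.670. No group had enough libraries for a check of single outlying libraries.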

How the results depend on the processing

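None of 66 named WT sites past the threshold, 46 further called sites of single genes and 10 interaction sites turned its direction under the alternatives run for it. Many of these alternatives could not turn a WT site whose groups do not overlap. With all 8 libraries (KO values may be missing) 66 of the 66 and 44 of the 46 passed, and with a robust and trended prior 63 and 28 did. With the 4 WT libraries, lower and higher calls were 0 and 0 on the logit scale. They were also 0 and 0 with the replicate number as a block (replicate block, limma's lowest adjusted p = 0.103). The calls were lost as well without any 1 of the 4 WT libraries. Such a fit has 1 residual degree of freedom, and the lone library is assumed to vary like the other group. Fitting all 8 libraries gave 2464 lower and 2897 higher calls with KO values allowed to be missing (1307 and 1159 of the calls reported above among them), and 2157 higher at sites measured in all 8. Added after the data were seen, that fit without 1 WT library gave 2000 higher calls without WT IP replicate 2, 2130 without WT input replicate 1 and 2328 without WT input replicate 2, with 2257 lower without the last; the lowest counts were 1855 lower and 1764 higher.

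KO calls (102 lower, 189 higher) were 54 and 96 at a mean efficiency of at least 0.1, 66 lower with a robust and trended prior, 115 higher after median centring, 0 and 0 with the replicate block, and 0 and 0 with only the 4 KO libraries; leaving out 1 library gave 0 to 25 lower and 0 to 42 higher. Interaction calls (749 lower, 596 higher) were 171 and 89 on the logit scale, 359 higher with the robust and trended prior, and 0 and 0 with the replicate block. Leaving out 1 library gave 23 to 721 lower and 6 to 555 higher; without KO input replicate 1 they were 23 and 6, and without KO input replicate 2 they were 41 and 9, while higher calls were 337 and 327 without WT IP replicate 1 or 2 and 387 and 316 without KO IP replicate 1 or 2. The share of lower calls in the last part of the model moved between 44.7% and 46.3%.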
